A study of Arabidopsis thaliana with 2 samples.

Results

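The transcripts described here were assembled from RNA-seq reads of Arabidopsis thaliana siliques and share exonic sequence, on the same strand, with an annotated gene whose introns they do not share. They were taken from the merged set of transcript models as every transcript with the overlap code o and an assembled identity on chromosomes 1 to 5, and each was assigned to the annotated gene named as its nearest reference. The rule gave 644 transcripts, which are 644 of 10991 assembled transcripts and 644 of 52608 transcripts in the whole set. They lay at 490 genes, of which 386 had 1 such transcript and 104 had 2 or more. Transcripts that hold annotated introns of 2 or more genes were to be left out, and 0 were, because 0 of the 644 held any annotated intron. All 644 ran on the strand of their gene. The data went against the label in 6 transcripts, at AT1G32570, AT1G33660 and SK7 (AT3G21840), whose exons covered 0 bases of the annotated exons of their gene.

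The labels describe 2 libraries, both of total RNA from siliques of Col-0 plants with the ago3-3 mutation, collected 1 to 5 days after pollination. Ribosomal RNA had been removed, and the library kit kept the strand. ARGONAUTE3, the mutated gene, encodes a protein that binds small RNAs. The design of the series also names wild-type Col-0 siliques, and the sources used here do not give which libraries were merged. The merged set holds 0 columns with a value per library, so depth is unknown, nothing below compares genotypes, and a transcript may come from either genotype or from both.

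A gene annotated with a single exon has no intron that an assembled transcript could share, so a spliced transcript over it receives the overlap code however well it is supported. In plants such genes include most pentatricopeptide repeat (PPR) genes, whose proteins bind and process RNA in mitochondria and chloroplasts, many F-box, kinase and auxin-responsive genes, and the genes of microRNAs and small nucleolar RNAs (snoRNAs), which are usually annotated as the hairpin or the mature stem alone although they are cut from longer precursors. Spliced untranslated regions, exons beyond the annotated ends and unprocessed precursors are the structures that an overlap transcript can add to such genes. A canonical plant intron begins with GT and ends with AG on the strand of the transcript.

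Some of the new splice sites are shown first, because the sites rather than any level are what the data hold. Each line gives bases 5′ to 3′ on the transcript strand, from the RefSeq TAIR10.1 sequence. Donor lines hold 6 exon bases followed by 14 intron bases, with the first 2 intron bases in capitals, and acceptor lines hold 14 intron bases followed by 6 exon bases, with the last 2 intron bases in capitals. AT5G16420, a PPR gene on the plus strand, illustrates 1 donor joined to 3 acceptors just beyond the annotated 3' end. Its introns lie at chr5:5369692-5369777, chr5:5369692-5369785 and chr5:5369692-5369798, and all 3 are present in the newer annotation.
AT5G16420 donor: ctggagGTatgtatatctta
AT5G16420 acceptor, 86 nt intron: aataatataaatAGgaccaa
AT5G16420 acceptor, 94 nt intron: aaataggaccaaAGgctctt
AT5G16420 acceptor, 107 nt intron: ggctcttgtggcAGatgaac

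AT1G07520 encodes a GRAS family transcription factor and lies on the minus strand. It shows the converse, 1 acceptor joined to 4 donors inside the coding span, at chr1:2311322-2311391, chr1:2311322-2311419, chr1:2311322-2311420 and chr1:2311322-2311766. The 70 nt and 445 nt introns are in the newer annotation, and the 98 nt intron, which begins with TG, and the 99 nt intron are not.
AT1G07520 acceptor: tgtgtcatttccAGggtcta
AT1G07520 donor, 70 nt intron: tctagtGTacgcatcgagaa
AT1G07520 donor, 98 nt intron: tagtggTGattatagtaaca
AT1G07520 donor, 99 nt intron: atagtgGTgattatagtaac
AT1G07520 donor, 445 nt intron: tacgatGTgagtttcttacc

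RPF2 (AT1G62670), which encodes a PPR protein that processes mitochondrial transcripts, shows a canonical acceptor with neighbours that lack AG, at chr1:23204551-23204700, chr1:23204553-23204700 and chr1:23204554-23204700 on the minus strand. Of these, the 150 nt intron with AG was in the newer annotation, and the introns 2 and 3 nt shorter were not. RPF2 and the other genes named outside the naming rule, given with the processing, were picked after their structures were seen.
RPF2 donor: tgcgagGTgaattaaccttt
RPF2 acceptor, 150 nt intron: gttactactgttAGgctgca
RPF2 acceptor, 148 nt intron: ctgttactactgTTaggctg
RPF2 acceptor, 147 nt intron: tctgttactactGTtaggct

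The last group shows mature microRNAs that lay inside the assembled exons, from the RefSeq annotation and sequence, with the seed (bases 2 to 8) in capitals. They are shown because the assembled transcripts carried them as part of much longer, partly spliced RNAs. The coordinates are chr5:287586-287606 (plus) for miR164b-5p, chr3:19073521-19073541 (plus) for miR171a-3p, chr5:1188211-1188231 (minus) for miR172b-3p, chr2:17029870-17029890 (plus) for miR319c, chr1:11137556-11137577 (plus) for miR167d and chr1:28568821-28568840 (plus) for miR394b-5p.
miR164b-5p: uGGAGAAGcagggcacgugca
miR171a-3p: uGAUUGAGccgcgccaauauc
miR172b-3p: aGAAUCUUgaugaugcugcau
miR319c: uUGGACUGaagggagcuccuu
miR167d: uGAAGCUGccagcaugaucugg
miR394b-5p: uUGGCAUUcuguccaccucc

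Most overlap transcripts gave introns to genes annotated without any. Of the 644, 605 lay at a gene with 1 annotated exon (93.9%, exact 95% interval 91.8 to 95.7%), and the code favours such genes by its definition. The other 39 lay at genes with several annotated exons, and all 39 were spliced. Seen over genes, 490 of 32811 annotated genes on chromosomes 1 to 5 had an overlap transcript (1.49%). The share was 458 of 10448 genes with 1 annotated exon (4.38%) and 32 of 22363 genes with several (0.143%). Intervals here and below cover counting error over transcripts, introns or genes alone and say nothing of the spread between plants.

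Spliced structures made up 573 of the 644 (89.0%). A single intron was the usual form, since 410 transcripts had 2 exons, 163 had 3 or more and 11 had 10 or more. The longest chain, 17 exons, was assembled for 2 transcripts at AT3G25495, a transcribed pseudogene with 1 annotated exon. The other 71 transcripts had 1 exon and differed from their gene only in where they began and ended. Of these, 33 lay at protein-coding genes, 26 at microRNA or snoRNA genes and 10 at pseudogenes of either kind.

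**Figure D1:**
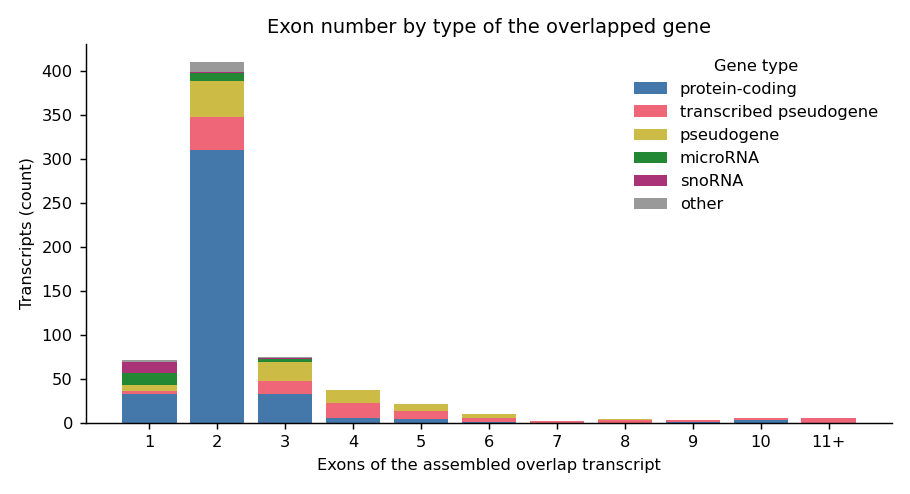
Number of overlap transcripts (y axis) by their exon number (x axis, with 11 or more in the last bar), stacked by the type of the overlapped gene in the reference annotation, with lncRNA, ncRNA and rRNA genes as other. The bar at 2 exons holds 410 transcripts, mostly at protein-coding genes, while 26 of the 71 transcripts with 1 exon lie at microRNA or snoRNA genes.

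A later annotation of the same genome, which the rule did not use, had taken up part of these structures. Of the 458 genes with 1 annotated exon and an overlap transcript, 179 have several exons in the newer annotation (39.1%, interval 34.6 to 43.7%), against 405 of 9990 other genes with 1 annotated exon (4.05%, 3.68 to 4.46%). Where the overlap transcript was spliced, the count was 174 of 395 genes (44.1%). The genes with and without an overlap transcript differ in make-up. Protein-coding genes were 297 of the 458, and 131 of these 297 have several exons in the newer annotation (44.1%). The other genes include all 623 transfer RNA genes, and which of the others were expressed in these siliques is not known. The whole intron chain of a newer transcript matched in 178 of 573 spliced transcripts (31.1%), every intron was found in 211 (36.8%), and 320 (55.8%) had 0 of their introns there. The sources used here do not say whether the newer annotation drew on these reads.

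New introns of overlap transcripts were found in the newer annotation more often than new introns of isoforms, the assembled transcripts that share at least 1 intron with an annotated transcript. With 1 intron taken per gene, the share was 166 of 427 (38.9%, interval 34.2 to 43.7%) for overlap transcripts and 1237 of 5215 (23.7%, 22.6 to 24.9%) for new isoforms, a difference of 15.2 percentage points (Fisher's exact test, two-sided, Benjamini-Hochberg adjusted over 2 tests, adjusted p = 6.06e-11). GT-AG ends were at 408 of 427 (95.6%, 93.1 to 97.3%) and 4988 of 5215 (95.6%, 95.1 to 96.2%), a difference of -0.0968 points that did not pass the same exact test (adjusted p = 0.902). That difference changed sign, to 0.0860 points, when introns were restricted to 60 to 2000 nt. The read alignment may have favoured GT-AG ends in both classes, so these shares do not measure how real the introns are. Its part was not tested.

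Overlap transcripts usually reached beyond the annotated gene. Both ends were exceeded in 398 (61.8%, interval 57.9 to 65.6%), the 5' end only in 127 (19.7%), the 3' end only in 77 (12.0%) and neither in 42 (6.52%). These shares are partly set by the rule. Of the 71 transcripts with 1 exon, 0 exceeded neither end, so for them the code itself may require an extension. The shortest overlap transcript had 230 nt, which is longer than the median microRNA gene (136 nt) or snoRNA gene (89 nt) described here. The extension at the 5' end had a median of 192 nt over the 525 transcripts with one, and the extension at the 3' end a median of 357 nt over 475. An end matched the annotated end exactly in 110 transcripts at the 5' side, in 161 at the 3' side and in 38 at both. Annotated ends were taken over all transcripts coded as a match of an annotated one, assembled matches included. Such a match can lie beyond the reference models, as at AT1G58602, where it began 183 nt upstream of them and set the 5' end. Of the 602 with any extension, 154 lay wholly within the gene's ends in the newer annotation (25.6%). Counting extensions of at least 100 nt lowered the share with both ends exceeded to 35.4%.

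The side of the extension went with the exon number. In transcripts with 1 exon, the 3' extension was the longer in 68 of 71 (95.8%, interval 88.1 to 99.1%), with a median of 855 nt at the 3' end against 191 nt at the 5' end in the 65 that had one. Spliced transcripts had the longer extension at the 3' end in 253 and at the 5' end in 278 of 573. Among the 71 transcripts with 1 exon, 9 had 84.5 to 99.0% of their 31-base words also on the mitochondrial sequence, and all 9 lay on chromosome 2 at genes numbered between AT2G07689 and AT2G07820. Without them, the median extension was 838 nt at the 3' end over the other 62, and 167 nt at the 5' end over the 57 of these that had one. Reads from mitochondrial RNA cannot be told apart from nuclear ones at these genes.

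**Figure D2:**
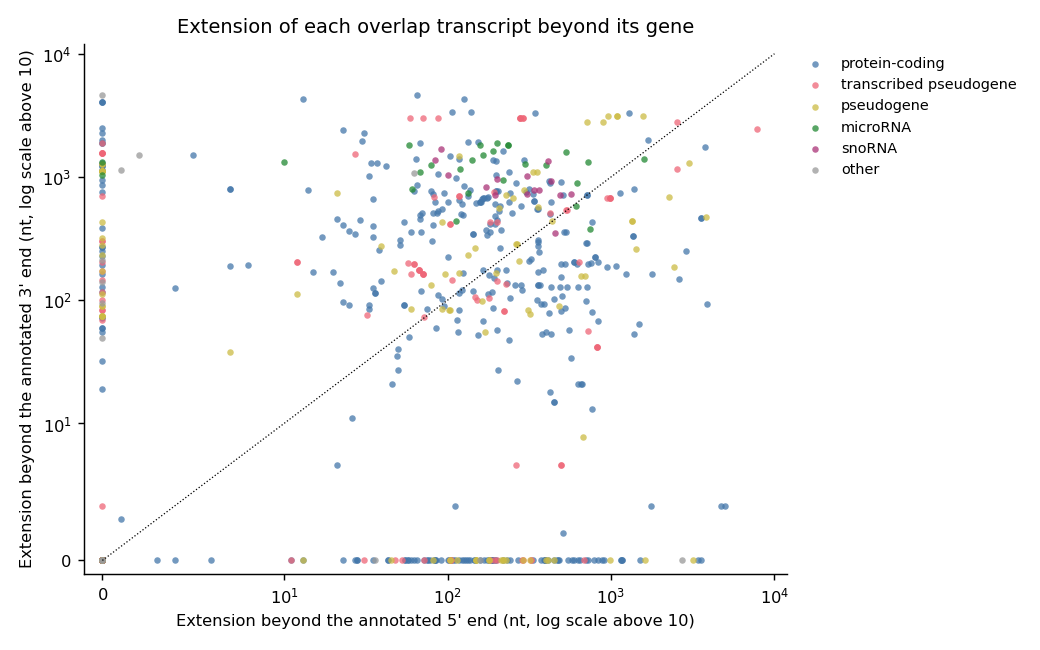
Extension of each of the 644 overlap transcripts beyond the annotated 5' end (x axis) and 3' end (y axis) of its gene, in nt, both axes linear up to 10 and logarithmic above. Each point is 1 transcript, coloured by gene type, and the dotted line marks equal extension. MicroRNA and snoRNA transcripts lie almost all above the line, with 3' extensions of 353 to 1894 nt.

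The largest 5' extension, 7821 nt, was that of AT2G07711, a transcribed pseudogene among the 9 with mitochondrial copies. Next came AT3G14470, which encodes an NB-ARC disease resistance protein, at 4990 nt. Its 3 transcripts, each of 5 exons, began 4990, 4700 and 1765 nt upstream, used 6 introns in all, every one of them 5' of the coding span, and ended within 4 nt of the annotated 3' end. Of those 6 introns, 1 is in the newer annotation. The largest 3' extension, 4669 nt, lay at an 18S ribosomal RNA gene (AT3G41768) and ran across another annotated gene, AT3G41979. At AT5G40400, a PPR gene, the transcript ran 4630 nt past the 3' end over AT5G40405 and AT5G40410, and its intron belongs to AT5G40405 in the newer annotation. Exons of another annotated gene on the same strand were overlapped by 39 of the 644 (6.06%), and those of an opposite-strand gene by 99 (15.4%).

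The 573 spliced transcripts held 781 distinct introns, all new by the rule. They had a median length of 148 nt, against 100 nt for the 127854 annotated introns. Of the 781, 408 lay inside the annotated gene (52.2%), 147 upstream (18.8%), 107 downstream (13.7%), 64 across the 3' end, 52 across the 5' end, and 3 spanned the gene. The share found in the newer annotation was 55.8% of introns upstream (interval 47.4 to 64.0%), 44.9% downstream (35.2 to 54.8%) and 39.2% inside (34.4 to 44.1%).

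Introns at protein-coding genes were spread over the untranslated and the coding sequence. Against the coding span of the newer annotation, 156 of 418 lay inside it (37.3%), 112 lay 3' of it (26.8%), 109 lay 5' of it (26.1%), 39 crossed its start or its end, and 2 spanned it. Those 5' of it were in the newer annotation in 61 of 109 (56.0%, interval 46.1 to 65.5%) and those 3' of it in 54 of 112 (48.2%, 38.7 to 57.9%). Inside the coding span the count was 59 of 156 (37.8%, 30.2 to 45.9%). A length divisible by 3, which leaves the reading frame in step, was also found in 59 of the 156 (37.8%, interval 30.2 to 45.9%). About 1 in 3 lengths is divisible by 3 without regard to frame, and the interval includes that share. These coding-span introns lay at 119 genes, and 138 of the 156 fell in genes annotated with 1 exon.

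GT-AG ends were present in 740 of the 781 introns (94.8%, interval 92.9 to 96.2%), against 98.8% of annotated introns. Here too the read alignment may have favoured such ends. GC-AG ends were present in 8 and AT-AC ends, typical of a minor class of plant introns, in 4. The other 29 (3.71%) carried other ends, 13 of them CT-AC, which is GT-AG read on the opposite strand, and 0 of the 29 are in the newer annotation. The full donor GTAAGT, counted on the transcript strand as the first bases of the intron, was at 66 new introns (8.45%, interval 6.60 to 10.6%) and at 9.17% of annotated introns.

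New introns of a gene often shared an end. In 70 pairs at 49 genes the donor was shared and the acceptor differed, by a median of 18 nt, with 37 pairs no more than 20 nt apart and 10 pairs exactly 3 nt apart. In 50 pairs at 36 genes the acceptor was shared and the donor differed, by a median of 90.5 nt, with 15 pairs no more than 20 nt apart. The sites printed for AT5G16420 and RPF2 are of the first kind and those for AT1G07520 of the second.

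Genes with pentatricopeptide (PPR) or tetratricopeptide repeat (TPR) words in their product were among those most often overlapped. Both repeats are helical and similar in shape, and the product words may not separate the families. An overlap transcript was assembled at 32 of 184 genes with 1 annotated exon and pentatricopeptide in their product (17.4%, interval 12.2 to 23.7%), and at 23 of 130 with tetratricopeptide (17.7%, 11.6 to 25.4%), beside 4.38% of all genes with 1 annotated exon. Protein-coding genes with neither word stood at 242 of 5046 (4.80%). The TPR word was added after the products had been seen. No test was made on these shares.

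In the pool of PPR and TPR genes, new introns lay most often after the coding span. Of 77 new introns at 56 PPR or TPR genes, 39 lay 3' of the coding span (50.6%, interval 39.0 to 62.2%), 30 inside it (39.0%) and 3 on its 5' side. The order held for genes with the PPR word, with 25 of 42 introns on the 3' side and 15 inside. It did not hold for genes with the TPR word, with 14 of 35 on the 3' side and 15 inside. Other protein-coding genes had 73 of 341 on the 3' side (21.4%, 17.2 to 26.1%), 126 inside (37.0%) and 106 on the 5' side (31.1%). The 39 introns on the 3' side came from 28 genes, and the newer annotation has 26 of them, 24 as introns of the same gene.

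**Figure D3:**
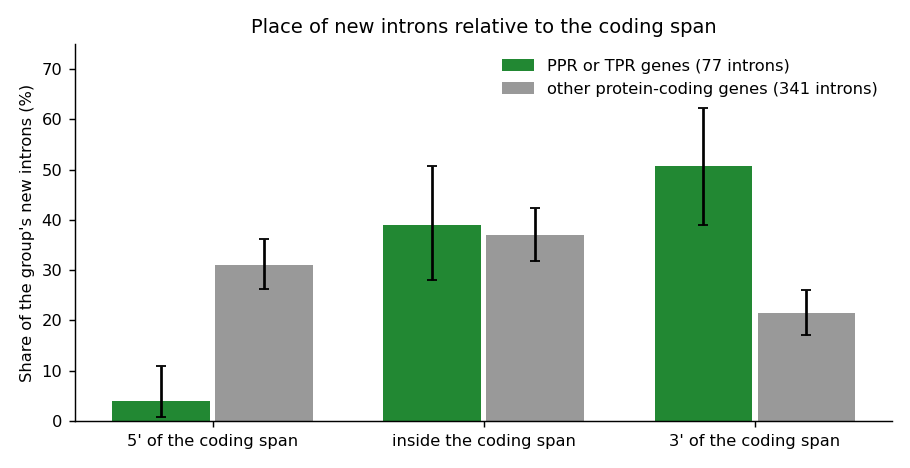
Share of new introns (y axis, percent) that lie 5' of, inside or 3' of the coding span of the newer annotation (x axis), for 77 introns of PPR or TPR genes (green) and 341 introns of other protein-coding genes (grey). Bars are shares and lines their exact 95% intervals, and introns across an end of the span are not drawn. PPR or TPR genes have 50.6% on the 3' side against 21.4% in the others.

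AT1G74580, a PPR gene, had 3 introns of 165, 378 and 109 nt in a row beyond its 3' end, in a transcript that ran 1362 nt past it. The first 2 of these are in the newer annotation and the last is not. EMB1025 (AT4G20090), a PPR gene needed for embryo development, had a 226 nt intron at chr4:10868062-10868287, also in the newer annotation, with the transcript running 600 nt past the 3' end. At SLO2 (AT2G13600), whose PPR protein acts in mitochondrial RNA editing, the intron on the 3' side was 1247 nt long and is not in the newer annotation. AT1G22960 had 1 donor joined to 3 acceptors, with introns of 94, 77 and 74 nt, of which the 74 nt intron ended in TA and was the one absent from the newer annotation.

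AT2G33680, called TPR-like in its product, had the most introns of these genes, all upstream of the older gene. Its longer transcript had 6 exons against 1 annotated and began 1389 nt upstream, and all 5 of its introns, of 134, 173, 426, 88 and 129 nt, are in the newer annotation, which gives the gene 6 exons and starts the coding span upstream of the older gene. A second transcript joined the donor of the 88 nt intron to the acceptor of the 129 nt intron, and that 288 nt intron is not in the newer annotation. Introns inside the coding span that the newer annotation shares were assembled at PPR40 (127 nt), a mitochondrial PPR protein, and at SLG1 (92 and 105 nt), a factor of mitochondrial RNA editing. The intron in OTP84 (160 nt, chr3:21256138-21256297), a factor of chloroplast RNA editing, had CT-AC ends.

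**Figure D4:**
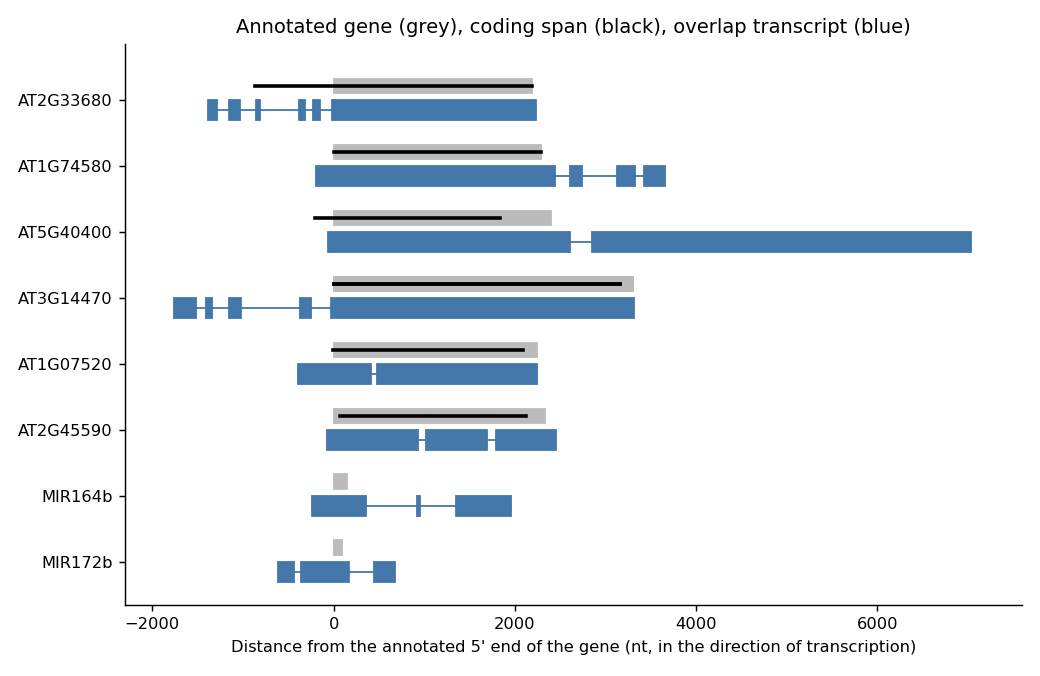
Annotated exon of 8 genes (grey), coding span of the newer annotation (black line) and 1 overlap transcript of each (blue boxes are exons, blue lines introns), by distance in nt from the annotated 5' end of the gene in the direction of transcription. AT1G74580 and AT5G40400 carry their introns beyond the 3' end, AT2G33680 and AT3G14470 upstream, and MIR164b and MIR172b, whose annotated part is the hairpin, on long spliced transcripts.

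Among other families of genes with 1 annotated exon, disease resistance or NB-ARC words were at 7 of 49 (14.3%, interval 5.94 to 27.2%) and kinase at 19 of 181 (10.5%, 6.44 to 15.9%). Zinc finger or RING stood at 18 of 254 (7.09%), transcription factor words at 6 of 95 (6.32%) and SAUR or auxin-responsive at 4 of 72 (5.56%), while F-box genes stood at 9 of 257 (3.50%). Late embryogenesis, seed storage or oleosin words were at 1 of 102 (0.980%), and products called uncharacterized at 93 of 4345 (2.14%). The uncharacterized group is not one of proteins alone, since it takes in pseudogenes such as AT4G07507. Pseudogenes not typed as transcribed stood at 60 of 3344 (1.79%). Ribosomal protein, leucine-rich repeat and heat shock words were at 4 of 35, 4 of 39 and 3 of 13. Counts of 1 to 5 genes were found for cytochrome P450 (2 of 44), glycosyltransferase or UDP- (2 of 78), histone (2 of 27), defensin, cysteine-rich or self-incompatibility (1 of 75), transposon or transposase (1 of 25) and hypothetical or unknown proteins (5 of 88).

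**Figure D5:**
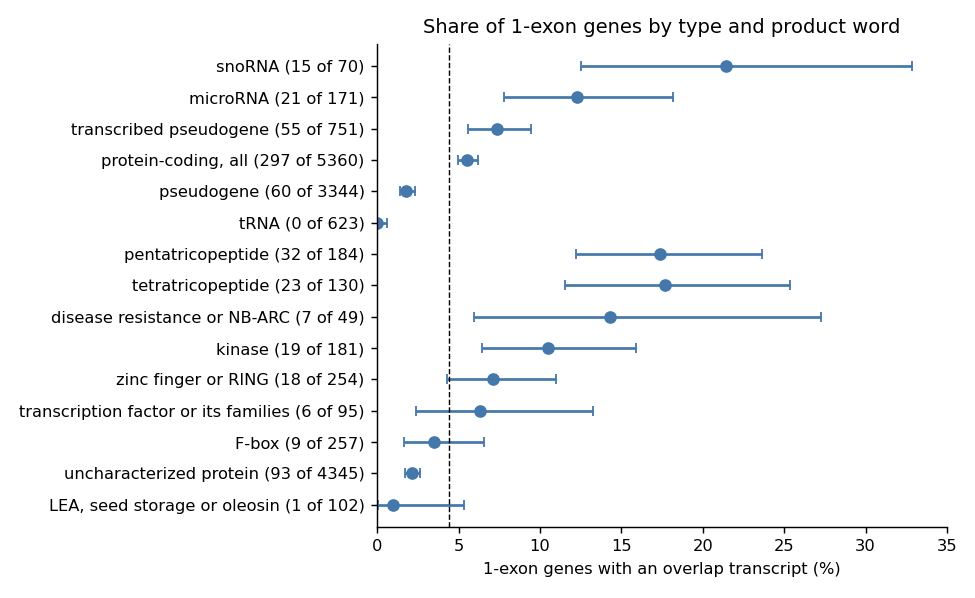
Share of genes with 1 annotated exon that had an overlap transcript (x axis, percent), by gene type in the upper 6 rows and by product word below, with the counts in each row label. Points are shares, lines exact 95% intervals, and the dashed line the 4.38% of all genes with 1 annotated exon. Among gene types, the whole interval lies right of the line for snoRNA, microRNA, transcribed pseudogene and protein-coding, and left for pseudogene and tRNA. Among product words, it lies right for pentatricopeptide, tetratricopeptide, disease resistance or NB-ARC and kinase, and left for uncharacterized protein.

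Several genes had new introns upstream of the older gene or near its 5' end. AT3G04980 and AT5G27240, which both encode DnaJ co-chaperone proteins, each had 2 introns upstream of the coding span, of 358 and 110 nt and of 330 and 94 nt, all in the newer annotation, with 5' extensions of 950 and 767 nt. AT1G35183, a RING finger gene, had 4 exons against 1, with 3 of 3 introns in the newer annotation and a 5' extension of 1793 nt. Of these, 1 intron lay 5' of the coding span of the newer annotation and 2 lay inside it. AT3G18170 (glycosyltransferase family 61) had 2 of 2 introns in it, both inside the coding span, and its transcript began 1158 nt upstream. SUVH7 (AT1G17770), a histone methyltransferase homologue, had a transcript of 2 exons that began 629 nt upstream and ended at the annotated 3' end, and its intron is not in the newer annotation. SUP (SUPERMAN, AT3G23130), a zinc finger regulator of the stamen and carpel boundary, had a 111 nt intron 5' of its coding span, at chr3:8242370-8242480, which the newer annotation does not hold.

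Introns within the coding span were assembled at AT2G45590, a protein kinase with 2 new introns and 91.5% of its annotated sequence kept, and at LRX3 (AT4G13340), an extensin of the cell wall, with 80.4% kept. Neither gene's introns are in the newer annotation. LTI30 (AT3G50970), a dehydrin with repeated lysine-rich segments, had 3 introns inside its coding span, of 81, 162 and 387 nt, all divisible by 3 and all with GT-AG ends. The bases at the 2 ends of each were repeated over 32, 15 and 15 nt, where a median of 2 repeated bases was found over GT-AG introns of overlap transcripts. Repeats of 8 or more bases were at 7 of 740 GT-AG introns (0.946%, interval 0.381 to 1.94%), at 0.307% of annotated introns and at 0 of 29 introns with other ends. The 3 introns of LTI30, a gene picked after its structure was seen, are among these 7. The part of such repeats in the calls was not tested.

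Genes that already had several annotated exons contributed 39 transcripts at 32 genes. RLP47 (AT4G13810), a receptor-like protein, had 3 new introns inside the gene, of 386, 104 and 145 nt, and only the 104 nt intron is in the newer annotation. AT1G66910, a protein kinase, had 2, of which 1 is in it. AT1G70390 (F-box) had 4 new introns over its 3 transcripts and the transcript with 3 exons covered 69.9% of the gene's exons. AT1G13050, a proline-rich receptor-like kinase, began 2591 nt upstream over AT1G13040, and both of its introns are in the newer annotation, 1 of them as an intron of AT1G13040. The 3 transcripts of AT1G32570 had 10 exons each, ran 4067 nt past the 3' end and covered 0% of the gene's exons.

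MicroRNA genes had 26 overlap transcripts at 21 of 171 genes with 1 annotated exon (12.3%, interval 7.77 to 18.2%). The 26 extended 377 to 1894 nt past the annotated 3' end (median 1292 nt) and 0 to 1601 nt past the 5' end (median 178 nt), with the 3' extension the longer in 23 of 26. The annotated genes have a median length of 136 nt and the transcripts one of 1482 nt. All 47 placements of an annotated mature microRNA in these transcripts lay inside an exon. Spliced forms were 12 of the 26, at 9 genes.

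MIR164b, whose product guides cleavage of NAC transcription factor mRNAs, had 4 transcripts that all ended 1813 nt beyond the annotated 3' end. Among them 1 had a single exon, 1 had 2 exons and 2 had 3, and their 4 introns, all downstream of the hairpin, were of 565, 1013, 401 and 416 nt. MIR171a, of the family that targets GRAS factors, had 2 transcripts that ran 1241 nt past the 3' end with introns of 256 and 85 nt. MIR172b, which targets APETALA2-like mRNAs, had an 85 nt intron upstream of the hairpin and a 280 nt intron downstream, in 1 transcript of 3 exons. MIR319c (family of TCP regulators), MIR167d (auxin response factors) and MIR394b (an F-box mRNA) had 1 intron each, with 3' extensions of 1403, 1333 and 1314 nt. The 14 introns of microRNA genes lay downstream in 11 cases, upstream in 2 and inside in 1, and 0 are in the newer annotation.

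The mature microRNAs of these 21 genes carried 33 seeds, of which 5 were shared by 2 genes. MIR165a and MIR166a, which target HD-ZIP III mRNAs, shared CGGACCA, MIR167a and MIR167d shared GAAGCUG, and MIR172b and MIR172d shared GAAUCUU. MIR396a and MIR396b, which target growth-regulating factors, shared UCCACAG, and MIR159a and MIR159b, which target MYB mRNAs, shared UUGGAUU. MIR168a and MIR162b, whose products target AGO1 and DCL1 mRNAs, each had 1 transcript with 1 exon that ran 1375 and 1043 nt past the 3' end. The protein-coding genes of the small RNA pathway (AGO1 to AGO10, DCL1 to DCL4, RDR1, RDR2, RDR6, HEN1, HYL1, SE, NRPD1 and NRPE1) had an overlap transcript in 0 of 22, none of which has 1 annotated exon. The TAS and IPS1-like precursors had one in 0 of 8, of which 7 have 1 exon. A count of 0 of 7 allows a share of up to 42.9%, so it says little.

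SnoRNA genes had 15 overlap transcripts at 15 of 70 genes (21.4%, interval 12.5 to 32.9%). SnoRNAs guide chemical modification of ribosomal RNA and in plants are often cut from joint precursors. The 15 ran 353 to 1685 nt past the 3' end (median 836 nt) and 84 to 573 nt past the 5' end (median 308 nt), against a median annotated length of 89 nt. A single exon was present in 12 of the 15, and 5 overlapped another annotated gene on the same strand, and the transcript of AT3G24614 ran over both AT3G24612 and AT3G24615. Transfer RNA genes, also short and made in precursor form, had 0 of 623, which allows a share of up to 0.482%. Small nuclear RNA genes had 0 of 12, which allows up to 25%.

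Pseudogenes split by type. Transcribed pseudogenes had 100 overlap transcripts at 57 genes, and 145 of their 197 new introns are in the newer annotation (73.6%), or 124 of 172 without AT3G25495. Pseudogenes of the other type had 98 transcripts at 61 genes, with 13 of 140 introns in it (9.29%). The reference gives the transcribed type from its own evidence, so that type and presence of introns in it are not independent. AT3G25495 had 5 transcripts of 4 to 17 exons within its annotated ends, and 21 of its 25 introns are in the newer annotation, which gives it 24 exons. AT4G22545 had the most overlap transcripts of all genes, 8, each ending 3009 nt past the annotated 3' end, with 7 new introns among them. AT2G38980 had 4 transcripts of 7 or 8 exons, where the newer annotation has 9.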

How the data were processed

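CASAVA 1.8, TopHat2 and Cufflinks were used on build TAIR10, per the submitters' processing notes. Other versions, settings and which libraries were merged were not given in the sources used. From them the authors deposited 1 merged table of exon coordinates with an identity and overlap code per transcript and 0 columns with a value per library. Per the file headers no count or score is given, so depth is unknown. Assembly can join neighbouring genes or lose weak ends, which moves ends and introns. Genes, types, products, coding spans and sequence came from the RefSeq TAIR10.1 annotation, called the newer annotation. Of 33265 table genes 32811 were found in it, 32807 of them overlapping on the same strand, and 99.0% of annotated introns were shared. Introns, ends and extensions (at least 1 nt) were computed with Python 3.11.15, numpy 2.4.6 and scipy 1.17.1, and the scripts were tested on simulated data. Intervals are exact (Clopper-Pearson, 95%), a count of 0 is given the limit of 3, and the threshold was 0.05. Members and lists were chosen with earlier results of these data known. Named by rule were the 6 genes with most overlap transcripts, the 6 coding genes with 1 annotated exon and most exons, the 6 largest extensions at each end, the 6 genes with several exons and most new introns inside, up to 6 microRNA genes and up to 3 per family. Of these the text describes a part.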

Additional observations from a re-analysis of the deposited data

Results flagged for a closer look

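Outside chromosomes 1 to 5, 10 further overlap transcripts were assembled on the mitochondrial sequence and 0 on the chloroplast sequence. They lay at 10 genes, 9 with 1 exon and 1, at ATMG01120, with 2. They were set aside because the rule covers the nuclear chromosomes and the table holds no control with which to compare them.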

How the results depend on the processing

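Of 25 alternatives, 16 left the value close to the reported one, 8 moved it and 1 turned its sign. By the exon number of the newer annotation, 53.9% of overlap transcripts lay at genes with 1 exon. With extensions of at least 100 nt, both ends were exceeded in 35.4%, the 3' end only in 23.4% and neither in 18.6%. With the gene ends of the newer annotation, these shares were 33.5%, 17.7% and 29.3%. Set against genes with 1 annotated exon alone, the share of genes with an overlap transcript was 4.38%. Introns of 60 to 2000 nt turned the difference in GT-AG ends to 0.0860 points (adjusted p = 1), beside adjusted p-values of 0.381 to 0.902 by Fisher's exact test otherwise, and the cause was not tested. The difference in presence in the newer annotation was 15.2 points and lay between 15.8 and 18.3 points under every intron, the length limits and protein-coding genes alone, the last chosen after seeing the data. Adding organelles gave 654 transcripts at 500 genes. No paired analysis was possible because the table carries 1 merged set with no column per library, and for the same reason no replicate could be left out.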

Other observations

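All 8 introns of AT2G11240, a pseudogene with 2 overlap transcripts of 6 exons, had CT-AC ends, which made up 8 of the 13 CT-AC introns. The newer annotation has a gene, AT2G11225, on the opposite strand there. Of the 13, 2 are introns of the opposite strand in the newer annotation, at AT2G11240 (chr2:4482125-4482225) and AT5G45460 (chr5:18416542-18416670). The latter reads as follows on the strand of the transcript, with the intron ends in capitals.
AT5G45460 donor side: tcttttCTgcataaagatgt
AT5G45460 acceptor side: gtatctcattgtACctaaac

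SK7 and SK9, neighbouring SKP1-like genes, had GC-AG introns of 3608 and 2688 nt. CAB2, a chlorophyll-binding protein gene, had a 2505 nt intron across its 3' end that the newer annotation lacks, and MIF1, a mini zinc finger gene, a 1806 nt intron that it has. These genes were picked after seeing their structures.

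Words of 31 bases that also occur elsewhere on chromosomes 1 to 5 made up at least 50% of 16 overlap transcripts, among them the ribosomal RNA one at AT3G41768 (92.5%). For 314 of the 644 transcripts, 0% of such words occurred elsewhere in the nuclear or organelle sequences.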
